A study of Homo sapiens with 3 samples.

Results

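Aminoacyl-tRNA synthetases are the enzymes that join each amino acid to its tRNA, and their mRNAs were followed here in DU145, a human prostate carcinoma line that grows without androgen, after siRNA against the tetraspanin gene TSPAN18. The members were chosen by name: all 36 of the 36 synthetase symbols listed were found in the 3 deposited tables, among 22773 genes common to them. They comprise 20 genes whose protein serves the cytosol and 16 that encode the separate mitochondrial enzymes (symbols ending in 2). Of the cytosolic genes, 8 encode enzymes of the multi-synthetase complex and 12 encode enzymes outside it. There were 3 libraries, made from total RNA 48 h after transfection with 75 nM siRNA: 1 received a negative control siRNA, and the others received siRNA 1 or siRNA 2 against TSPAN18. All 3 shared the line, the medium and the transfection reagent. Each condition is 1 library, the siRNA libraries share 1 control, and the sources used here name no separate cultures, so the only replicate spread is that between the siRNAs. In these bulk libraries fewer cells of a kind and less RNA per cell cannot be told apart.

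A synthetase, or a domain of one, recognises an amino acid and the tRNAs that decode it, spends ATP to activate the amino acid, and attaches it to the end of the tRNA. The enzymes fall into class I and class II, which differ in the fold of the catalytic domain. Human cells keep a separate, nuclear-encoded set for the mitochondrial ribosome, with exceptions: KARS and GARS each supply both compartments, and mitochondrial glutaminyl-tRNA is made by amidation of a glutamate first attached by EARS2. Several cytosolic enzymes are held together by the scaffold proteins AIMP1, AIMP2 and EEF1E1 in the multi-synthetase complex. In mammalian cells short of amino acids, uncharged tRNA activates the kinase encoded by EIF2AK4 (GCN2), translation of the transcription factor ATF4 goes up, and ATF4 binds C/EBP-ATF response elements near many amino acid and synthetase genes.

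The libraries held 30058731 (control), 29913825 (siRNA 1) and 29766559 (siRNA 2) recovered read pairs. Levels are given as CPM, read counts scaled to a common library total, and 3 levels in a row are those of control, siRNA 1 and siRNA 2. Those of TSPAN18, the target of both siRNAs, were 16.9, 1.37 and 1.51, which is 8.09% and 8.93% of the control. The epithelial keratin genes KRT8, KRT18 and KRT19 were at 140 to 464 CPM in every library, EPCAM was at 8.59 to 13.7 CPM and CDH1 at 5.54 to 12.2 CPM. The endothelial marker PECAM1 and the fibroblast marker PDGFRB stayed below 1 CPM, and the collagen gene COL1A1 was at 3.18 to 7.25 CPM. The markers KLK3 and PTPRC were not analysed here. Of the 14185 genes whose mean over the libraries reached 1 CPM, 0 passed an adjusted p of 0.05 in limma (0% of genes tested), and 691 had an unadjusted p under 0.05. All 36 synthetases passed the same filter, 0 of them had an unadjusted p under 0.05 in limma, and their adjusted p-values were 0.992 or above. No synthetase can therefore be said to have changed by the test, and what follows gives measured differences between single libraries.

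The cytosolic synthetase mRNAs were, for the most part, higher with both TSPAN18 siRNAs than with the control siRNA, and the mitochondrial ones were more often lower. Of the 20 cytosolic genes, 16 (80%) were higher with both siRNAs and 3 (15%) were lower with both, whereas among all genes tested 29.3% were higher and 37.7% lower with both. Of the 16 mitochondrial genes, 4 (25%) were higher with both and 9 (56.2%) were lower with both. On the scale log2(CPM + 1), the median ratio of the cytosolic genes was 0.29 with siRNA 1 and 0.33 with siRNA 2. For the mitochondrial genes the medians were -0.10 and -0.15, beside -0.10 and 0.01 over all genes tested. Median-of-ratios scaling moved the median of all genes with siRNA 1 from -0.10 to 0.01, and under it the cytosolic medians were 0.41 and 0.32 and the mitochondrial ones 0.01 and -0.16. The mitochondrial genes thus stood near the median of all genes with siRNA 1 and below it with siRNA 2. The differences were small for single genes: by a rule of 1.5-fold on the same scale, SARS was the 1 synthetase past it with both siRNAs.

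Counting error, which depth sets, was narrower than most of these differences. Exact 95% intervals on the ratio of read pairs lay above the control with both siRNAs for 15 of the 20 cytosolic genes and below it with both for 3 (QARS, FARSA and VARS). The same held for 17.2% and 22% of all genes tested. That background reaches down to a mean of 1 CPM and was not matched for level. Intervals are wider for low genes, so these shares cannot be compared directly. Among the 16 mitochondrial genes the intervals lay above with both for 3 (LARS2, AARS2 and RARS2) and below with both for 4 (IARS2, CARS2, VARS2 and NARS2). These intervals are on CPM, cover counting error only and say nothing of the scaling or of variation between cultures. This way of counting was chosen after the values were seen.

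**Figure D1:**
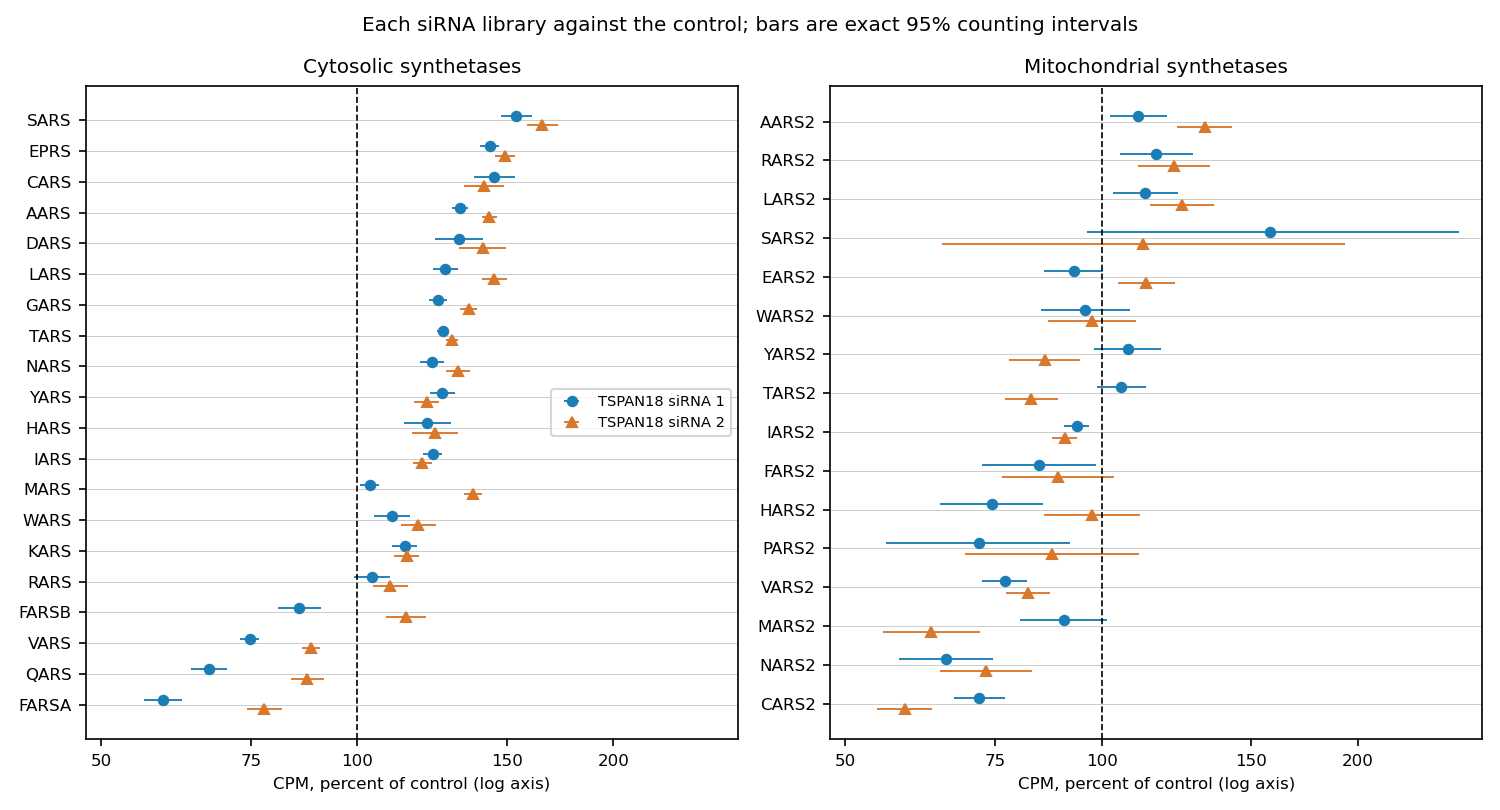
CPM of each synthetase with TSPAN18 siRNA 1 (circles) and siRNA 2 (triangles) as a percentage of the control library, on a log axis, for the 20 cytosolic genes (left) and the 16 mitochondrial genes (right). Bars are exact 95% counting intervals and the dashed line is the control; SARS stands highest and FARSA lowest on the left, and CARS2 is lowest on the right.

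Promoter sequences are shown next because some of the cytosolic synthetase genes carry the C/EBP-ATF response element, the letters bound by ATF4, close to their start. The motif TGATGNAA was searched on both strands of the RefSeq promoter table (GRCh38.p14), which holds 250 bases before and 50 after each start, and 30 of the 36 synthetases matched the table by symbol. It was present in 7 of 16 cytosolic genes (43.8%) and in 1 of 14 mitochondrial genes (YARS2). Over all 35116 promoters of the table the share was 3.62% (4.46% of its genes), and over the 10489 tested genes with a promoter it was 2.69%. The form TGATGCAA, a subset of the first, was in 6 of the 16 cytosolic genes, 0 of the 14 mitochondrial ones and 0.866% of all promoters. LARS, DARS, VARS, YARS, AARS2 and VARS2 had no match by symbol. Printed below are 120 bases around the start, or around the motif where it lies farther upstream, 5′ to 3′ on the strand of the gene, with the motif in capitals. TTGCATCA and TTTCATCA are the motif read from the opposite strand.
MARS promoter, chr12:57487978-57488097 (+): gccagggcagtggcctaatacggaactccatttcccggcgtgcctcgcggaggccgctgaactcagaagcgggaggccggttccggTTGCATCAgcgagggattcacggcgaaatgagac
IARS promoter, chr9:92293668-92293787 (-): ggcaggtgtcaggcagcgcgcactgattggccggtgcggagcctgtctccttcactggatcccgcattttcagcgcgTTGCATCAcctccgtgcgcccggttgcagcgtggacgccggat
AARS promoter, chr16:70289630-70289749 (-): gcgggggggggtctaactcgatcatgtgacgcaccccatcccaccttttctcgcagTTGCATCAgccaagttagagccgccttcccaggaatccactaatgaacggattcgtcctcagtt
CARS promoter, chr11:3057394-3057513 (-): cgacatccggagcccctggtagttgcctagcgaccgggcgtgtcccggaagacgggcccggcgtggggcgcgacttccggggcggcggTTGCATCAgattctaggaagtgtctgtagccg
NARS promoter, chr18:57621807-57621926 (-): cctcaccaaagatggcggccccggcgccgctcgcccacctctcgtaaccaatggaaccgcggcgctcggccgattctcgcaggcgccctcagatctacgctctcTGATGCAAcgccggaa
TARS promoter, chr5:33440875-33440994 (+): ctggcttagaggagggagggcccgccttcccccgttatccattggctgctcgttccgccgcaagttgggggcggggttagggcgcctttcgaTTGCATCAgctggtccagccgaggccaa
GARS promoter, chr7:30594788-30594907 (+): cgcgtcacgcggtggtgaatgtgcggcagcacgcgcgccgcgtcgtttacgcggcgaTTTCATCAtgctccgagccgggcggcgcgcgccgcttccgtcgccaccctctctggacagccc

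Counted from the start, with bases before it negative, the first letter of the motif as printed lay at -2 in CARS, -4 in MARS, -13 in IARS and -33 in GARS. It lay at 3 in TARS, at 15 in NARS and at -187 in AARS. GARS carried the form TGATGAAA, at the 2nd of its listed starts. CARS and TARS also had another listed start, whose promoter did not hold the motif. A gene was counted as holding the motif if any of its listed promoters did. For contrast, the promoters of the cytosolic synthetase genes with the highest and the lowest ratio to control, SARS and FARSA, are shown over the same distance from the start, and neither held the motif anywhere in its 300 bases.
SARS promoter, chr1:109213803-109213922 (+): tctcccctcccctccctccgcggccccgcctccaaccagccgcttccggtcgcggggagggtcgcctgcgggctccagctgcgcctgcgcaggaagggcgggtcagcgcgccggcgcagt
FARSA promoter, chr19:12933682-12933801 (-): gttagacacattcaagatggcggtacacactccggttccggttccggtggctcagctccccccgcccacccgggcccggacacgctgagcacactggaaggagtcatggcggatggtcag

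The 7 cytosolic genes with the motif were all higher with both siRNAs, with log2 ratios of 0.05 to 0.53 with siRNA 1 and 0.25 to 0.51 with siRNA 2 (medians 0.31 and 0.43). The 9 cytosolic genes searched and without it spread more widely, from -0.75 to 0.62 and from -0.36 to 0.72, with medians of 0.13 and 0.19. That second group contained both ends of the cytosolic range, SARS and FARSA. In it SARS, EPRS, HARS, KARS, WARS and RARS were also higher with both siRNAs. QARS and FARSA were lower with both, and FARSB was mixed. Of all 20 cytosolic genes 16 were higher with both, beside 29.3% of all genes tested. That share was not counted for tested genes with the motif. Among all tested genes with a promoter, the medians were -0.01 and 0.08 with the motif and -0.09 and 0.02 without it. A match is a description of letters in a window, and no binding was measured.

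The enzymes of the multi-synthetase complex were higher with both siRNAs for 7 of 8 genes (87.5%), against 29.3% of all genes tested. Their medians were 0.24 (siRNA 1) and 0.35 (siRNA 2) on the log2(CPM + 1) scale. EPRS (ENSG00000136628), which charges both glutamate and proline tRNAs, stood at 305, 436 and 455 CPM in the control, siRNA 1 and siRNA 2 libraries. That is 143% (95% counting interval 139 to 147) and 149% (145 to 153) of the control, just under the 1.5-fold rule on the log scale (0.51 and 0.58). DARS, the aspartate enzyme, was at 54.6, 71.8 and 76.6 CPM. LARS, the leucine enzyme, which also takes part in signalling leucine to mTORC1, was at 194, 246 and 281 CPM. In these 3 genes both siRNA libraries lay above the control, and siRNA 2 lay above siRNA 1 in CPM.

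The isoleucine enzyme gene IARS was at 346, 424 and 412 CPM. KARS (lysine) was at 209, 238 and 239 CPM, and its log2 ratios of 0.18 and 0.19 differed less between the siRNAs than those of any other cytosolic synthetase. RARS (arginine) was nearest to the control of the complex genes with siRNA 2, at 110, 115 and 121 CPM, and its counting interval with siRNA 1 (99.2% to 109%) included the control. MARS, which charges methionine for both initiator and elongator tRNA, was at 405, 419 and 554 CPM. That is 103% of the control with siRNA 1 and 137% with siRNA 2. Of the exonic bases of MARS, 13.3% are shared with other genes, among them DDIT3 on the opposite strand, and whether the authors' counting used strand is not given in the sources used here.

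QARS (ENSG00000172053), the glutamine enzyme, was the complex gene that went the other way. It was at 139, 93.1 and 122 CPM in the control, siRNA 1 and siRNA 2 libraries, or 66.9% (63.8 to 70.2) and 87.4% (83.5 to 91.4) of the control. Both siRNA libraries lay below the control, and siRNA 1 was the lower. Of the scaffolds, AIMP1 was at 35.96, 48.7 and 50.5 CPM and EEF1E1 at 4.13, 5.65 and 6.08 CPM, higher with both siRNAs. AIMP2 was at 57.7, 56.1 and 52.8 CPM, lower with both by little (log2 ratios -0.04 and -0.12). 28.9% of the exonic bases of AIMP2 are shared with EIF2AK1 on the opposite strand.

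Among the 12 cytosolic enzymes outside the complex, 9 (75%) were higher with both siRNAs and 2 (16.7%) were lower with both. Of all genes tested, 29.3% were higher and 37.7% lower with both. SARS (ENSG00000031698), the serine enzyme, was at 121, 187 and 200.3 CPM. Both siRNA libraries lay above the control, at 154% (147 to 160) and 165% (158 to 172) of it. The mean log2 ratio was 0.67 ± 0.0720 (SD, n = 2 siRNAs), with an unadjusted p of 0.0596 and an adjusted p of 0.992 in limma. SARS was also the 1 synthetase with an unadjusted p under 0.05 in each of edgeR, DESeq2 and limma-voom on the recovered pairs, where its adjusted p was 0.820 or above. Over all genes tested, 1.96% stood above the control by 1.5-fold or more with both siRNAs and 3.46% stood as far below it, so 1 of 20 cytosolic genes is a share of the same order as the background.

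CARS, the cysteine enzyme, was at 73.3, 106 and 103 CPM (145% and 141% of the control). AARS, the alanine enzyme, was at 525, 693 and 749.9 CPM (132% and 143%). GARS (glycine), whose enzyme also serves mitochondria, was at 409, 508.5 and 553 CPM (124% and 135%). All 3 genes carry the motif shown above, and in each the siRNA libraries lay above the control.

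TARS, the threonine enzyme, was the highest synthetase mRNA in CPM and per kilobase of coding length, at 790.3, 997 and 1021 CPM (126.1% and 129%). NARS (asparagine) was at 225, 275.5 and 296 CPM. YARS (tyrosine) was at 203, 255 and 245 CPM, and HARS (histidine) at 59.0, 71.3 and 72.8 CPM. WARS, the tryptophan enzyme and an interferon-induced gene, was at 108, 118 and 127 CPM. These genes had both siRNA libraries above the control, at 110% to 131% of it.

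FARSA (ENSG00000179115), the catalytic alpha subunit of the cytosolic phenylalanine enzyme, had the lowest ratios of the cytosolic genes. Its levels were 133, 78.4 and 103 CPM, so that the siRNA libraries stood at 59.0% (56.1 to 62.1) and 77.8% (74.2 to 81.5). The mean log2 ratio was -0.56 ± 0.278 (SD, n = 2 siRNAs), with an unadjusted p of 0.127 and an adjusted p of 0.992 in limma. FARSB, the beta subunit of the same enzyme, was at 84.6, 72.3 and 96.5 CPM, below the control with siRNA 1 and above it with siRNA 2. The subunit genes thus did not move alike: the log2 ratios were -0.75 and -0.36 for FARSA against -0.22 and 0.19 for FARSB. VARS, the valine enzyme, was at 474, 354 and 418 CPM, or 74.7% and 88.1% of the control.

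On the log2(CPM + 1) scale, FARSA was the 1 synthetase at least 1.5-fold lower with siRNA 1, a distance that 15.1% of all genes tested reached, and SARS was the 1 that was as much higher, against 4.43%. With siRNA 2, SARS was again the 1 past 1.5-fold higher, against 6.34% of genes, while CARS2 and MARS2 were past 1.5-fold lower, against 6.61%. The added 1 CPM draws low genes toward the control: on CPM alone NARS2 (65.6% of the control) and SARS2 (158%) were also past 1.5-fold with siRNA 1, the interval of SARS2 including the control.

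**Figure D2:**
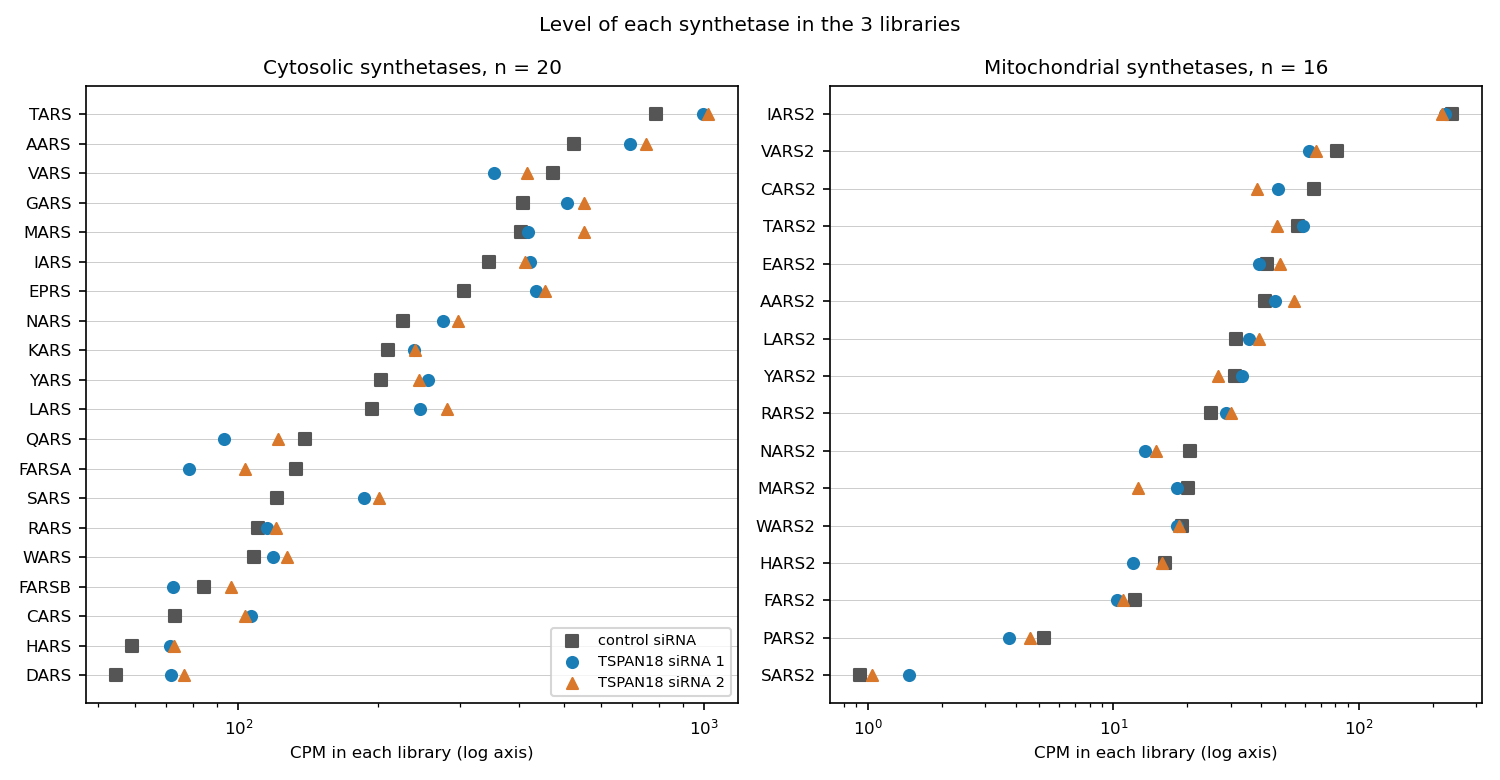
CPM of the 36 synthetases per library on a log axis, cytosolic genes on the left and mitochondrial genes on the right, with 1 marker per library (control, TSPAN18 siRNA 1, TSPAN18 siRNA 2). Cytosolic genes run from 54.6 CPM (DARS) to 1021 CPM (TARS), and the mitochondrial genes lie lower, with IARS2 highest at 217 to 239 CPM and SARS2 lowest near 1 CPM.

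The mitochondrial enzymes had no gene past 1.5-fold with both siRNAs in either direction. CARS2 (ENSG00000134905), the mitochondrial cysteine enzyme, had the lowest mean ratio of all 36: 65.2 CPM in the control against 46.8 and 38.3 CPM with siRNA 1 and siRNA 2, or 71.8% (67.0 to 76.9) and 58.7% (54.5 to 63.2). Its mean log2 ratio was -0.61 ± 0.201 (SD, n = 2 siRNAs), with an unadjusted p of 0.0885 and an adjusted p of 0.992 in limma. NARS2 (asparagine) was at 20.4, 13.4 and 14.9 CPM, or 65.6% (57.7 to 74.5) and 73.2% (64.6 to 82.8). In both genes the siRNA libraries lay below the control.

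MARS2 (ENSG00000247626), the mitochondrial methionine enzyme, was at 20.0, 18.1 and 12.6 CPM. The siRNA 1 value was within counting error of the control (90.3%, 80.3 to 102) and the siRNA 2 value was not (63.1%, 55.3 to 71.9). VARS2 (valine) was at 81.2, 62.5 and 66.6 CPM, and 21.99% of its exonic bases are shared with GTF2H4 on the same strand. HARS2 (histidine) was at 16.2, 12.0 and 15.8 CPM, and 15.8% of its exonic sequence is shared, in part with its neighbour HARS on the opposite strand. IARS2, the isoleucine enzyme, was at 239, 224 and 217 CPM and lay below the control by a small margin with both siRNAs (93.5% and 90.5%).

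PARS2 (proline) was at 5.22, 3.74 and 4.57 CPM, and FARS2 (phenylalanine) at 12.3, 10.4 and 10.9 CPM, both low enough that the siRNA 2 interval included the control. WARS2 (tryptophan) was at 19.0, 18.2 and 18.5 CPM, within counting error of the control with either siRNA. TARS2 (threonine), at 56.2, 59.3 and 46.5 CPM, and YARS2 (tyrosine), at 31.2, 33.5 and 26.7 CPM, were above the control with siRNA 1 and below it with siRNA 2. EARS2, the glutamate enzyme, had the opposite order at 42.1, 39.0 and 47.5 CPM.

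The mitochondrial genes above the control with both siRNAs were AARS2, LARS2, RARS2 and SARS2. AARS2 (alanine) was at 41.2, 45.5 and 54.5 CPM, LARS2 (leucine) at 31.6, 35.5 and 39.2 CPM, and RARS2 (arginine) at 24.9, 28.8 and 30.2 CPM. SARS2 (serine) was at 0.932, 1.47 and 1.04 CPM, with wide intervals that included the control (96.1% to 263% and 64.9% to 193%). The value of SARS2 is uncertain, because 57.0% of its exonic bases are shared with a readthrough gene on the same strand and with MRPS12. A further uncertainty is that 11 synthetases (KARS, RARS, AARS, CARS, FARSB, GARS, NARS, WARS, IARS2, TARS2 and WARS2) have annotated pseudogenes named after them, to which the authors' alignment could have given some of their reads.

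Set against each other by amino acid, the cytosolic gene had the higher log2 ratio in 14 of 17 cytosolic-mitochondrial pairs with both siRNAs and the lower one in 2 (FARSA against FARS2 and RARS against RARS2). VARS and VARS2 were the pair with mixed order, and FARSB and FARS2 were equal to 2 decimals with siRNA 1. FARS2 was paired with both FARSA and FARSB, and EPRS with both EARS2 and PARS2, so the pairs are not separate. The median difference between partners was 0.26 with siRNA 1 and 0.40 with siRNA 2. The widest pair was CARS and CARS2, both charging cysteine, with differences of 1.00 and 1.24. NARS and NARS2 differed by 0.86 and 0.82, and EPRS and PARS2 by 0.91 and 0.74. MARS and MARS2 differed by 0.19 with siRNA 1 and 1.08 with siRNA 2.

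**Figure D3:**
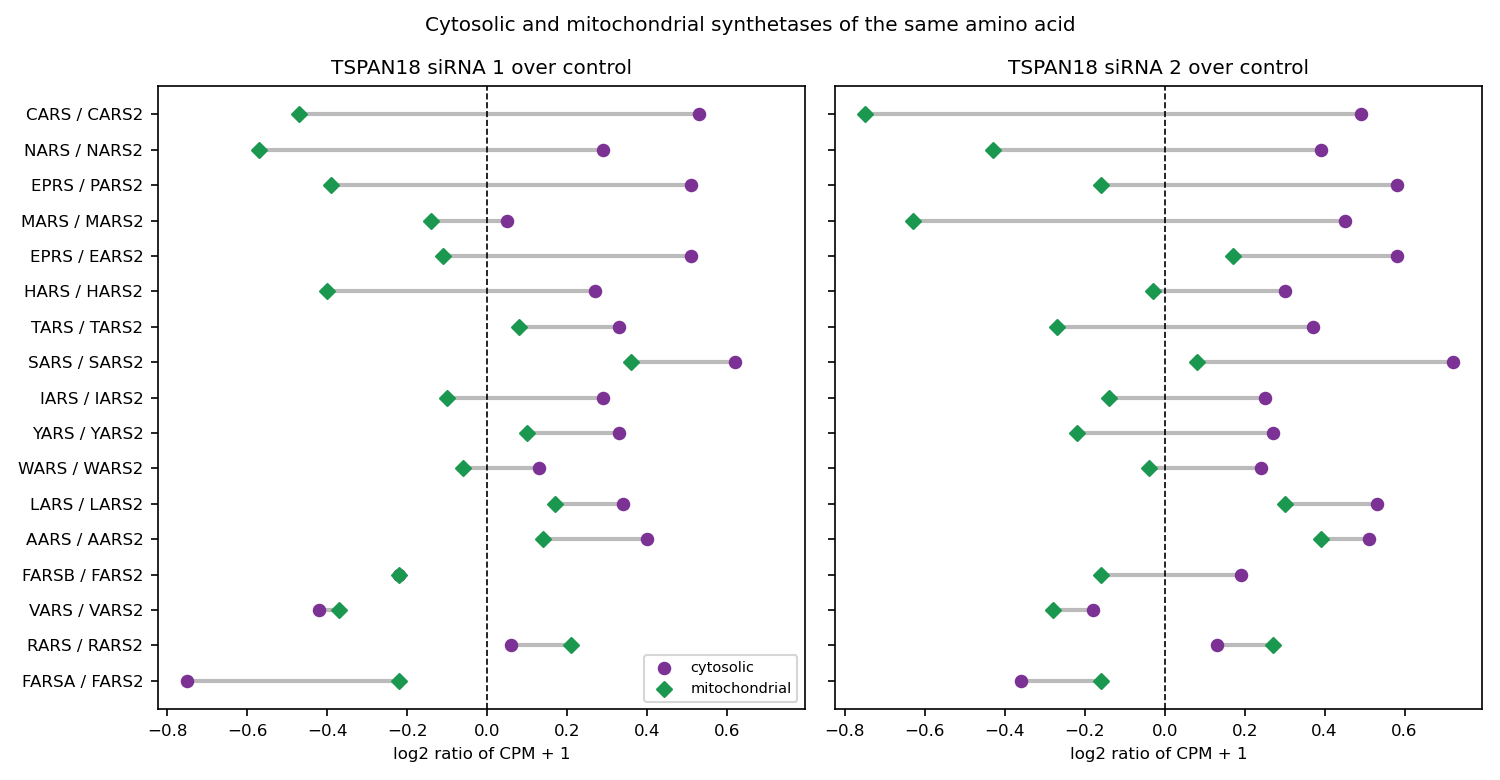
Log2 ratios of CPM + 1 to control for each cytosolic gene and the mitochondrial gene of the same amino acid, with siRNA 1 and siRNA 2. The cytosolic gene stands higher with both siRNAs in 14 of 17 pairs, and CARS and CARS2 are farthest apart.

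Summed over the genes, the cytosolic synthetases took 4968 CPM of the control library and 5759 and 6246 CPM of the siRNA 1 and siRNA 2 libraries, which is 115.9% (115 to 117) and 125.7% (125 to 127) of the control. The mitochondrial genes together took 707 CPM, 652 and 645, or 92.2% (90.5 to 94.0) and 91.2% (89.4 to 93.0). These percentages were not recomputed with median-of-ratios scaling, and their intervals cover counting error only. That scaling moved the mitochondrial median log2 ratio from -0.10 to 0.01 with siRNA 1 and from -0.15 to -0.16 with siRNA 2. The lower mitochondrial sum with siRNA 1 is therefore a result on CPM and cannot be separated from the choice of scaling. The ratio of the cytosolic to the mitochondrial sum, in which the scaling of a library cancels, went from 7.03 in the control to 8.83 and 9.69. The complex genes and those outside it stood alike in their sums: 116% of control for each with siRNA 1, and 128% and 124% with siRNA 2. These sums weigh abundant genes such as TARS and AARS most.

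Genes were ranked roughly per kilobase of their longest coding part, which leaves out UTRs, so the order is approximate. On this scale the control library had TARS highest of the cytosolic genes at 348 CPM per kb, followed by GARS at 184.5 and AARS at 181. CARS (29.4), DARS (36.3) and HARS (38.6) were lowest. GARS and AARS stood close together in the control, and AARS was the higher with both siRNAs (239 and 258 CPM per kb against 229 and 249). Of the mitochondrial genes, IARS2 was highest at 78.9 CPM per kb, then CARS2 at 38.6 and EARS2 at 26.3, and SARS2 (0.597), PARS2 (3.67) and FARS2 (9.07) were lowest. EARS2 and TARS2 (26.1) were next to each other with little between them, and with siRNA 2 CARS2, at 22.6, stood below EARS2 at 29.7.

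The siRNAs differed from each other as well. On CPM, the siRNA 2 library had the higher log2 ratio for 17 of the 20 cytosolic and 10 of the 16 mitochondrial genes. Among all genes tested the share was 62.3%, which is near the mitochondrial share (62.5%). This order depends on the scaling: on CPM the cytosolic medians were 0.29 (siRNA 1) and 0.33 (siRNA 2). With median-of-ratios scaling they were 0.41 and 0.32, and the count of genes was not repeated under it. No synthetase was 1.5-fold apart between siRNA 1 and siRNA 2, a distance that 13% of all genes tested reached upward (siRNA 2 higher) and 3.74% downward. The widest gaps among synthetases were those of FARSB (siRNA 2 at 133.5% of siRNA 1), MARS (132%), FARSA (132%), HARS2 (131%) and QARS (130.5%) upward, and of MARS2 (69.8%) downward. By catalytic class the cytosolic genes stood close together, with medians of 0.21 and 0.26 for the 10 class I genes and 0.30 and 0.38 for the 10 class II genes.

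GC content moved with the ratios over the whole transcriptome. The median log2 ratio of all genes tested went from 0.18 (siRNA 1) and 0.21 (siRNA 2) where the transcript was under 40% GC to -0.39 and -0.18 at 60% GC or more. The median GC content of the synthetase transcripts was 43.4% for the complex genes, 52.5% for the other cytosolic genes and 52.4% for the mitochondrial genes. With the trend removed, the cytosolic medians were 0.29 and 0.32 and the mitochondrial ones -0.02 and -0.11. Of the cytosolic genes that lay low, FARSA has 60.3% GC, QARS 55.2% and VARS 62.6%. Without the trend their log2 ratios were -0.43 and -0.22 for FARSA, -0.35 and -0.10 for QARS, and -0.05 and -0.01 for VARS. CARS2 stood at -0.22 and -0.65, NARS2 at -0.58 and -0.52, and SARS at 0.76 with each siRNA.

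**Figure D4:**
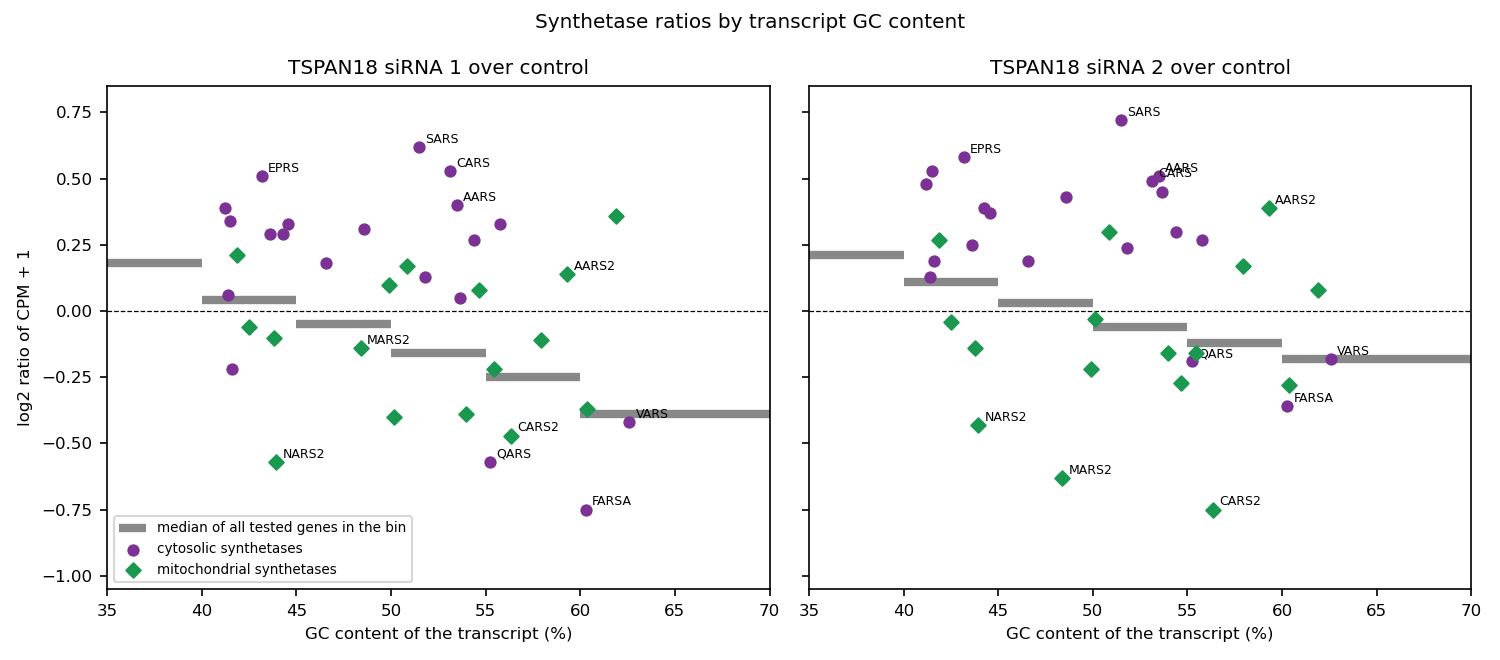
Log2 ratio of CPM + 1 to control against the GC content of the transcript for cytosolic (circles) and mitochondrial (diamonds) synthetases, with siRNA 1 (left) and siRNA 2 (right). Grey bars are medians of all genes tested in each GC bin and go down from 0.18 to -0.39 on the left and from 0.21 to -0.18 on the right; most circles stand above the bar of their bin.

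Heptamers that earlier results of these data had tied to each siRNA were looked up in the 3′ UTRs (TCACCAA and TTCACCA for siRNA 1, TGGGTCA and GGGTCAA for siRNA 2). None of the 20 cytosolic genes held a site for either siRNA, whereas 20.0% and 12.4% of the tested genes with a 3′ UTR did. The heptamers came from these same data and 3′ UTR length was not matched, so no conclusion is drawn from these shares. Of the 15 mitochondrial genes with a 3′ UTR, WARS2 held a siRNA 1 site and CARS2 a siRNA 2 site. CARS2 was lower with siRNA 2 (58.7%) than with siRNA 1 (71.8%), and the part of the site in that difference was not tested.

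Other genes of tRNA charging were spread around the control, and 44 of 45 listed genes were measured. Of these, 18 (40.9%) were higher with both siRNAs, 13 (29.5%) lower with both and 13 mixed, with medians of -0.00 and 0.15. Among all genes tested, 29.3% were higher and 37.7% lower with both. The list for uncharged tRNA holds sensors and genes of the response downstream of them, and the highest ratios in it were those of a downstream gene, PPP1R15A, whose product (GADD34) leads a phosphatase to eIF2 alpha. Its levels were 97.5, 159 and 200.5 CPM, with log2 ratios of 0.70 and 1.03. In limma its unadjusted p was 0.0273 and its adjusted p 0.992. It was the 1 of the 44 genes with an unadjusted p under 0.05, beside 691 of all 14185 genes tested. ATF4 mRNA was at 361, 418 and 424 CPM, and DDIT3 (CHOP), a target of ATF4, was at 9.91, 15.3 and 18.1 CPM. PPP1R15A was the 1 of 44 listed genes past 1.5-fold with both siRNAs on the log2(CPM + 1) scale. Among all genes tested 1.96% stood that far above the control with both, a share of the same order. DDIT3, at 0.58 and 0.81, lay just under 1.5-fold with siRNA 1 and was past it on CPM alone (154% and 183%). 39.6% of the exonic bases of DDIT3 are shared, MARS on the opposite strand included. Of the 7 genes, 4 were higher with both siRNAs (EIF2S1, ATF4, DDIT3 and PPP1R15A) and 0 were lower with both, with medians of 0.21 and 0.23. The genes at the sensing step were mixed: the kinase gene EIF2AK4 was at 178, 220.3 and 178 CPM, its activator GCN1 at 368, 370.4 and 347 CPM, and its inhibitor IMPACT at 43.3, 35.03 and 50.9 CPM.

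The tRNA exportin gene XPOT was at 384, 471 and 499 CPM, higher with both siRNAs, while XPO5, which carries microRNA precursors, was at 203, 186 and 165 CPM. PSTK and SEPSECS, which make selenocysteine on its tRNA, were both higher with both siRNAs (5.69, 6.92 and 7.46 CPM for PSTK, 7.02, 8.59 and 9.61 CPM for SEPSECS). The list of 4 genes for the amidotransferase (QRSL1, GATB, GATC) and the methionyl-tRNA formyltransferase MTFMT had medians of -0.12 and 0.26. For delivery to the mitochondrial ribosome, GFM2, a recycling factor, was at 42.5, 65.4 and 58.8 CPM, and TUFM, the elongation factor, at 235, 214 and 208 CPM.

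Of the tRNA processing genes, TSEN54, which encodes a subunit of the splicing endonuclease, was lower with both siRNAs at 38.0, 20.8 and 27.1 CPM. ELAC2, the 3′ end nuclease, was at 255, 217 and 200.5 CPM. HSD17B10, a subunit of mitochondrial RNase P, was at 60.4, 51.5 and 41.5 CPM.

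**Figure D5:**
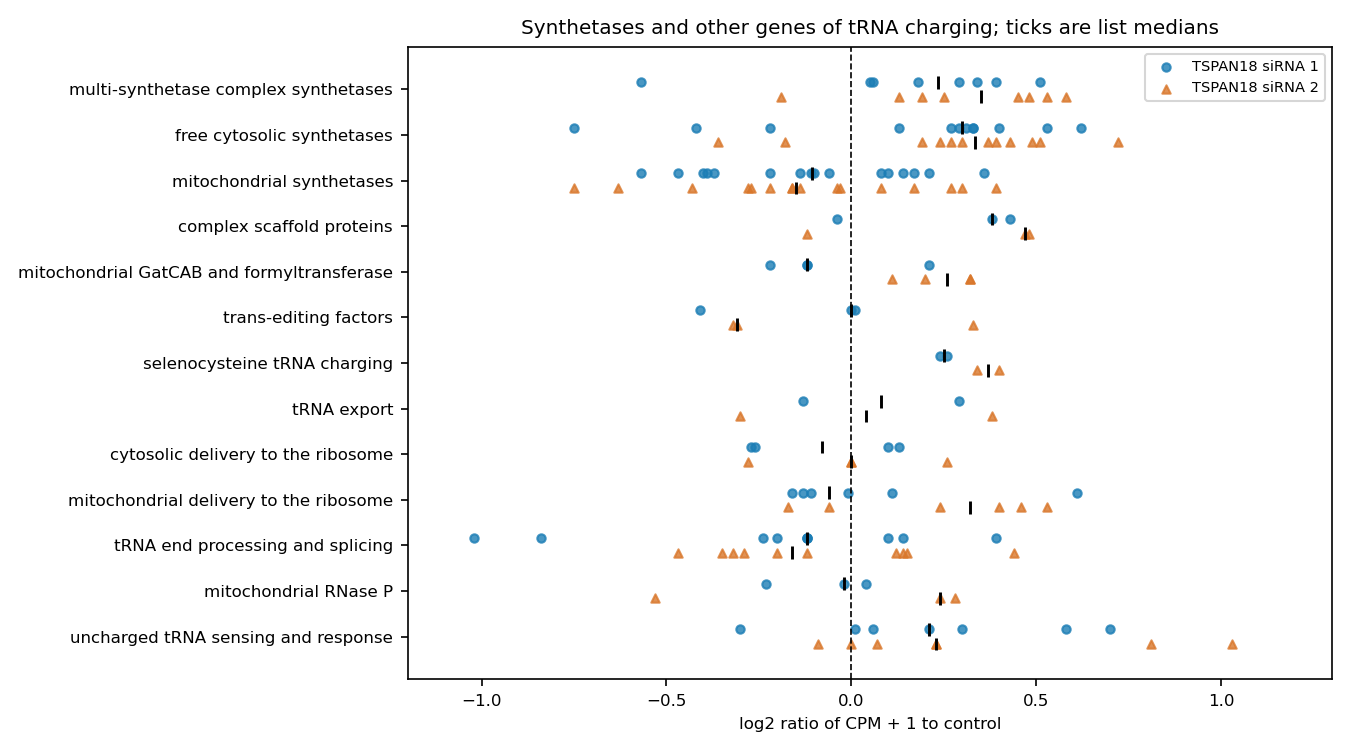
Log2 ratios of CPM + 1 to control for the genes of each list, with TSPAN18 siRNA 1 (circles) and siRNA 2 (triangles), and ticks at the list medians. The cytosolic synthetase lists sit mostly right of 0 with medians of 0.24 to 0.35, and the mitochondrial synthetases have medians of -0.10 and -0.15 (0.01 and -0.16 with median-of-ratios scaling).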

How the data were processed

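RNA of 3 DU145 libraries was sequenced by the authors; their tools, per the submitters' processing notes, include HTSeq 0.6.1, HISAT2 2.1.0 and bcl2fastq 2.19.1, with build hg19. Annotation release and strand setting: not given in the sources used here. As deposited, the tables hold 1 normalised value per gene, which their sums (999861 to 999868 per library) show to be CPM made by the authors. Every value was a whole number of reads within 0.001 read, and read pairs were recovered from them; 1 pair is worth 0.0333 to 0.0336 CPM, and a count of 0 allows up to 3 pairs, or 0.0998 to 0.101 CPM.

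Ratios were taken on log2(CPM + 1), a scale that understates differences of low genes. The 14185 genes whose mean reached 1 CPM were fitted in limma 3.58.1 (R 4.3.3), with 2 siTSPAN18 libraries against 1 control, 1 residual degree of freedom and Benjamini-Hochberg adjustment over all of them. The fit assumes that the single control varies as the siRNA libraries do, and nothing in the labels says that these came from separate cultures. The p-values therefore measure only the spread between the siRNA libraries, and mostly that spread pooled over genes. limma draws the variance of each gene toward that of all genes, with 6.27 prior degrees of freedom against 1 residual. A p-value therefore does not rest on the SD of its own gene alone. An exact permutation test over 3 libraries cannot go below 0.333. Alternatives on recovered pairs used edgeR 4.0.16, DESeq2 1.42.0 and limma-voom. GC content, coding length, exon overlap and 3′ UTRs came from GENCODE 29, and promoters from RefSeq (GRCh38.p14), neither being the authors' build. The fit was tested on simulated data.

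Values are given per library for synthetases at least 1.5-fold from the control with either siRNA and for the 3 highest and 3 lowest per kilobase in each compartment; the others are given in brief. The members, lists, motifs and rules were chosen with earlier results of these data known.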

Additional observations from a re-analysis of the deposited data

How the results depend on the processing

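Of 250 synthetase log2 ratios recomputed under the alternatives, 241 kept their direction and 9, in 6 synthetases near the control, did not. The settings that change only the filter leave each ratio as it was, so the 241 include agreements fixed in advance. A changed pseudocount also keeps the sign of each single siRNA ratio. The count is therefore not a rate of robustness. With the GC trend removed RARS was at -0.0079, TARS2 at 0.0519 and YARS2 at 0.0040, and with median-of-ratios scaling FARSB was at 0.0323 and WARS2 at 0.0008. With 1 siRNA left out, FARSB ran from -0.2238 to 0.1876, EARS2 from -0.1066 to 0.1708, TARS2 from -0.2698 to 0.0764 and YARS2 from -0.2153 to 0.0991. The cause was not tested. The cytosolic median of the mean log2 ratio (0.29) was 0.34 with median-of-ratios scaling and 0.32 with the GC trend removed, and 0.29 to 0.33 with 1 siRNA left out. The mitochondrial median (-0.11) was -0.0578 and -0.0611 under those alternatives and -0.15 to -0.10 with 1 siRNA left out. The difference between them (0.40) was 0.39 to 0.48 with 1 siRNA left out. With 1 siRNA left out, 0 to 1 cytosolic and 0 to 2 mitochondrial genes were at least 1.5-fold lower, against 0 with both. The 0 genes called by limma became 1 with median-of-ratios scaling, 1 with the GC trend removed and 13 with DESeq2, none a synthetase, against 0 with edgeR (770 at an unadjusted p under 0.05) and 0 with limma-voom (821). The lowest adjusted p of a synthetase over the limma settings was 0.750. No limma fit was run with a siRNA left out, since no residual degree of freedom remains. No paired analysis was possible because the control and siTSPAN18 groups share fewer than 2 replicate numbers. Depth limits SARS2 and PARS2, the lowest genes; the other limits are 1 library per siRNA, 1 control and an unknown strand setting.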
